A study of Homo sapiens with 16 samples.

Results

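The chromatin immunoprecipitation sequencing (ChIP-seq) peaks of ARID1A in unmodified HCT116 cells were compared with those of the library labelled shCtrl H3K9me3, and the 8063 ARID1A peaks that overlapped an H3K9me3 peak by at least 1 bp, of 29576 ARID1A peaks in all, are called shared sites here. The sites were thus chosen by the peak calls of both libraries, so that both are present at each site is no finding. Both lists were called against input DNA, and the 3 other pairings of the input and IgG lists are given beside them. HCT116 is an established human colon cancer cell line. Unmodified cells are those whose label names no shRNA, and shCtrl cells are the control shRNA cells of the study, whose titles carry the letters CTR. The pair therefore differs in antibody and in cell state, and each library has input and IgG controls from its own state. Neither label gives a clone, an induction or a time point, and each group has 1 library, so there is no replicate check and every interval below covers counting error only. The same ARID1A antibody is named for both ARID1A libraries of the series. The 8 other libraries used for comparison are ARID1A, H3K9me3, TRIM28 and SETDB1 precipitations from unmodified, shCtrl and ARID1A-loss (shARID1A) cells. For H3K9me3 the protocol text names a product of Abcam, while the sample's own antibody field names one of ABclonal.

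ARID1A belongs to the SWI/SNF (BAF) remodelling complex, which slides and evicts nucleosomes at promoters and enhancers. H3K9me3, trimethylation of lysine 9 of histone H3, is the mark of constitutive heterochromatin and is known in human cells at satellite repeats, at silenced transposons and over the zinc finger (ZNF) gene clusters of chromosome 19, where TRIM28 and the methyltransferase SETDB1 deposit it. In epithelial cells SWI/SNF is known to work at distal enhancers with AP-1 and with TEAD factors of the Hippo pathway. AP-1, the FOS and JUN family of transcription factors, binds sequences of the form TGANTCA, where N is any base in the counts here. TEAD factors bind GGAATG. The study asked how ARID1A relates to heterochromatin.

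Promoters inside shared sites are shown first because TGANTCA was more frequent at shared sites than in the other promoter sets compared. Of the 300-base promoter windows of RefSeq (GRCh38.p14, 250 bases before to 50 after a gene start), 199 overlapped a shared site, and 39 windows of 35 protein-coding genes lay wholly inside a site shared in all 4 lists. Of these 35 genes 17 held TGANTCA in their window. MEF2C, a transcription factor of muscle and neural development, is shown at chr5:88785462-88785761 (minus strand), HRH1, the histamine H1 receptor, at chr3:11136988-11137287 (plus strand), and SMAD3, a mediator of TGF-β signalling, at chr15:67125492-67125791 (plus strand). They had the highest ARID1A folds among the genes with a match. LIMA1, PRKACB and ANKRD28, with ARID1A folds of 5.52, 5.36 and 4.93, held no match and are not shown. RTN4, which encodes the reticulon Nogo, is shown at chr2:55051223-55051522 (minus strand) because it held the most matches, and DNMBP, a guanine nucleotide exchange factor for CDC42, at chr10:99930858-99931157 (minus strand) as the start with the highest ARID1A fold, without a match. Each runs 5′ to 3′ on the gene's strand, and capitals mark TGANTCA, whose reverse complement is the same string. Matches thus include TGAATCA, as in RTN4, beside TGACTCA and TGAGTCA, and these forms were not counted apart.
MEF2C: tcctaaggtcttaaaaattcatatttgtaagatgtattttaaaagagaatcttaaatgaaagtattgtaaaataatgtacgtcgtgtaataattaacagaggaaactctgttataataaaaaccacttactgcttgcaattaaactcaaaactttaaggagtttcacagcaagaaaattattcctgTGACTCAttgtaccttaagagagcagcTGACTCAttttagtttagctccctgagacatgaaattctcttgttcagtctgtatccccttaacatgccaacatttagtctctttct
HRH1: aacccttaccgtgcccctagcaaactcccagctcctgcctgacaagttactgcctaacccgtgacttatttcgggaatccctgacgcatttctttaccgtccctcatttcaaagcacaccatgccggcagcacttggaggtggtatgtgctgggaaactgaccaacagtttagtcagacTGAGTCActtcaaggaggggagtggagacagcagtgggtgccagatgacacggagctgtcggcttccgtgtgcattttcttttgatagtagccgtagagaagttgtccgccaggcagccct
SMAD3: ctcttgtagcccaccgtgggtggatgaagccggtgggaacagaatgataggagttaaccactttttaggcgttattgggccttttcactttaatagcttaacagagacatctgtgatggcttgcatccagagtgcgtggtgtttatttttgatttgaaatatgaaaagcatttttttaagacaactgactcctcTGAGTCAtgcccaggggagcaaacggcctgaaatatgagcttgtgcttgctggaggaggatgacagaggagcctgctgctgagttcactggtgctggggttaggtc
RTN4: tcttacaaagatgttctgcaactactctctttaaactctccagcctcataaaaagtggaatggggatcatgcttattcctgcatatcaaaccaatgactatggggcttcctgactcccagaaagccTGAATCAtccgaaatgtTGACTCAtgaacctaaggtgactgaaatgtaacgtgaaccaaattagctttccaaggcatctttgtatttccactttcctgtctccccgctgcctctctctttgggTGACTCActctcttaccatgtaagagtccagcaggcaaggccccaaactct
DNMBP: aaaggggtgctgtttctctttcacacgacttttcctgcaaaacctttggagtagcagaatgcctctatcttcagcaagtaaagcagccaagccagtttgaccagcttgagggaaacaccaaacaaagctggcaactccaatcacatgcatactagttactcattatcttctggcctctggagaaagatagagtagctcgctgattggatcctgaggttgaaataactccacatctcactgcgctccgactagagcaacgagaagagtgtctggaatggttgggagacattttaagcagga

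TGANTCA was found in 98 of the 199 promoter windows at a shared site, 49.2% (exact 95% interval 42.1 to 56.4). It was found in 12.6% of the 333 windows at an ARID1A peak without H3K9me3, in 25.4% of the 702 windows at an H3K9me3 peak without a shared site, and in 7.68% of all 34961 windows. The share at shared sites was higher than at ARID1A peaks without H3K9me3 by 36.6 percentage points (28.7 to 44.2) and than at H3K9me3 peaks without a shared site by 23.9 (16.3 to 31.4). Median GC content was 48.0% at shared sites and 58.7% over all windows, and among windows of 40 to 55% GC the shares were 52.7% at shared sites, 16.2% at ARID1A peaks without H3K9me3, 28.1% at H3K9me3 peaks without a shared site and 12.3% over all of that GC range. With both lists against IgG 36.8% of 334 windows at shared sites held a match, and the unshared peaks of those lists were not counted. The TEAD string GGAATG (either strand) gave no such difference, with 21.1% at shared sites, 15.6% at ARID1A peaks without H3K9me3 (difference 5.49 points, -1.17 to 12.6) and 14.0% of all windows. Among the other libraries, windows at a shCtrl TRIM28 peak held TGANTCA in 15.9% of cases (11.8 to 20.7), at an unmodified TRIM28 peak in 8.55%, at a shCtrl ARID1A peak in 6.12%, at a shCtrl SETDB1 peak in 9.83%, at a shARID1A H3K9me3 peak in 6.17% and at an unmodified H3K9me3 peak in 6.06% (4 of 66). Windows of genes with several starts share bases, and a match is a string, not a bound site. The sets were limited to a range of GC but not of fold or width, and shared sites are wider and of higher fold. In the shCtrl ARID1A and unmodified H3K9me3 lists 97.5% and 99.5% of peaks had a q of 1. The part of peak strength in these differences was not tested.

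**Figure D1:**
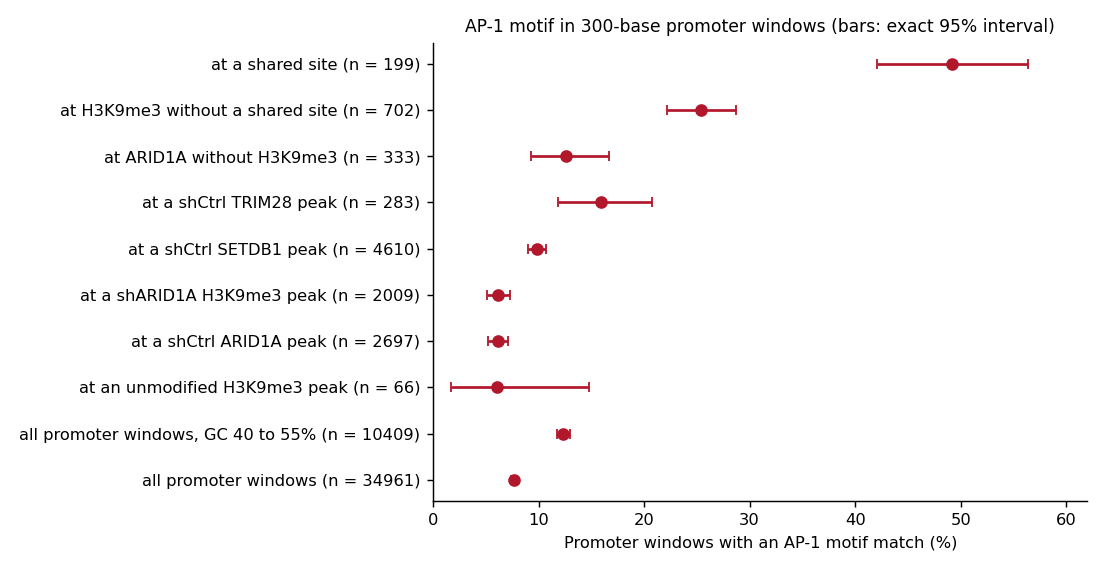
Share of 300-base RefSeq promoter windows that hold TGANTCA (%, x axis) by the peaks they overlap (y axis, number of windows in brackets), with exact 95% intervals, all lists against input. Windows at a shared site stand at 49.2%, above every other set drawn, and all windows at 7.68%.

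In these 2 libraries the numbers of peaks were unequal. Unmodified ARID1A had 29576 peaks against input and 52522 against IgG, with median widths of 345 and 326 bp, and shCtrl H3K9me3 had 92063 and 226527, with median widths of 247 and 244 bp. Read depth is not given in the lists. A peak is called strong here at a deposited q of at most 0.05, which 835 and 823 ARID1A peaks and 6833 and 15758 H3K9me3 peaks reached, and 87.1% of ARID1A peaks against input had a q of 1. The library labelled shCtrl H3K9me3 went against its label at the chromosome 19 ZNF genes, where it had 5.26 peaks per Mb of gene body, against 10.1 in the other protein-coding genes of chromosome 19 and 36.8 over all protein-coding genes. In the unmodified H3K9me3 library the order was the other way, with 6.39, 0.806 and 3.81 per Mb, and shARID1A H3K9me3 had 25.1, 22.8 and 18.3. Only 15 of the 11374 unmodified H3K9me3 peaks against input were strong, 99.5% had a q of 1, and 18.2% lay on chromosome 8. That library is thus a weak reference for the mark here and below. Against IgG the shCtrl library had 45.7, 98.7 and 87.1 per Mb. Chromosome 19 as a whole was short of its peaks against input, as given below. A wrong label or mixed chromatin was not tested, and the library is called by its label throughout.

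ARID1A peaks met H3K9me3 peaks far more often than windows of the genome did. Of all 1 kb windows in reach 1.51% held an ARID1A peak against input and 2.63% one against IgG, and 4.29% held an H3K9me3 peak against input and 10.4% one against IgG. Against those shares, 33.0% of windows with an ARID1A peak held an H3K9me3 peak with both lists against input, a ratio of 7.68 to all windows. The ratio was 3.80 for ARID1A against input with H3K9me3 against IgG, 4.44 for ARID1A against IgG with H3K9me3 against input, and 2.74 with both against IgG. As a share of peaks, 27.3% of ARID1A peaks (26.8 to 27.8) were shared with both lists against input, 31.8% with H3K9me3 against IgG, 14.9% with ARID1A against IgG and 21.3% with both against IgG. Seen from H3K9me3, 9.24% of peaks (9.05 to 9.43) lay at an ARID1A peak, and 4.44%, 8.84% and 5.12% in the other pairings in that order. Of the 8063 shared sites 5468 (67.8%) were shared in all 4 lists.

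The stronger and wider an ARID1A peak was, the more often it was shared. Ranked by fold enrichment over input, all 100 of the first 100 ARID1A peaks lay at an H3K9me3 peak, 94.8% of ranks 101 to 500, 72.0% of ranks 1001 to 2000, 29.9% of ranks 5001 to 10000 and 14.6% beyond rank 20000. With both lists against IgG the same steps gave 97.0%, 90.0%, 65.2%, 27.0% and 16.0%. The order held from the other side, since 95 of the first 100 H3K9me3 peaks lay at an ARID1A peak, and 58.2% of strong H3K9me3 peaks against 5.32% of the rest. Of the strong ARID1A peaks 778 of 835 (93.2%, 91.2 to 94.8) lay at an H3K9me3 peak and 79.5% at a strong one, and over the 3 other pairings the first share was 83.0% to 94.6%. Median ARID1A fold was 2.85 at shared sites and 2.51 at the other ARID1A peaks. Across the shared sites the folds of both libraries had a Spearman correlation of 0.35, a description over sites whose folds come from 2 input libraries of the same line.

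Median width was 511 bp at shared sites and 319 bp at the other ARID1A peaks, and H3K9me3 peaks were 437 bp wide at an ARID1A peak and 238 bp elsewhere. A wide peak covers more bases and so meets another list more often, and width goes with fold, so their parts in the overlap cannot be told apart here. The share of ARID1A summits inside an H3K9me3 peak also went up with width. With the list split into 4 equal width classes it was 8.24% in the narrowest (up to 268 bp), 9.85% and 14.1% in the next, and 37.3% in the widest (from 481 bp). By peak rather than summit those shares were 12.6%, 15.4%, 22.4% and 58.5%, and of the 283 ARID1A peaks of at least 2000 bp 279 were shared (98.6%, 96.4 to 99.6) and 71.0% had their summit in an H3K9me3 peak. Over all 8063 shared sites the median distance between both summits was 170 bp, 32.4% lay within 100 bp, and a median 52.9% of the ARID1A peak was covered. At the limit of the rule, the 252 shared sites with an overlap of at most 25 bp had a median ARID1A fold of 2.58, and the 191 ARID1A peaks that missed an H3K9me3 peak by at most 25 bp had 2.57.

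**Figure D2:**
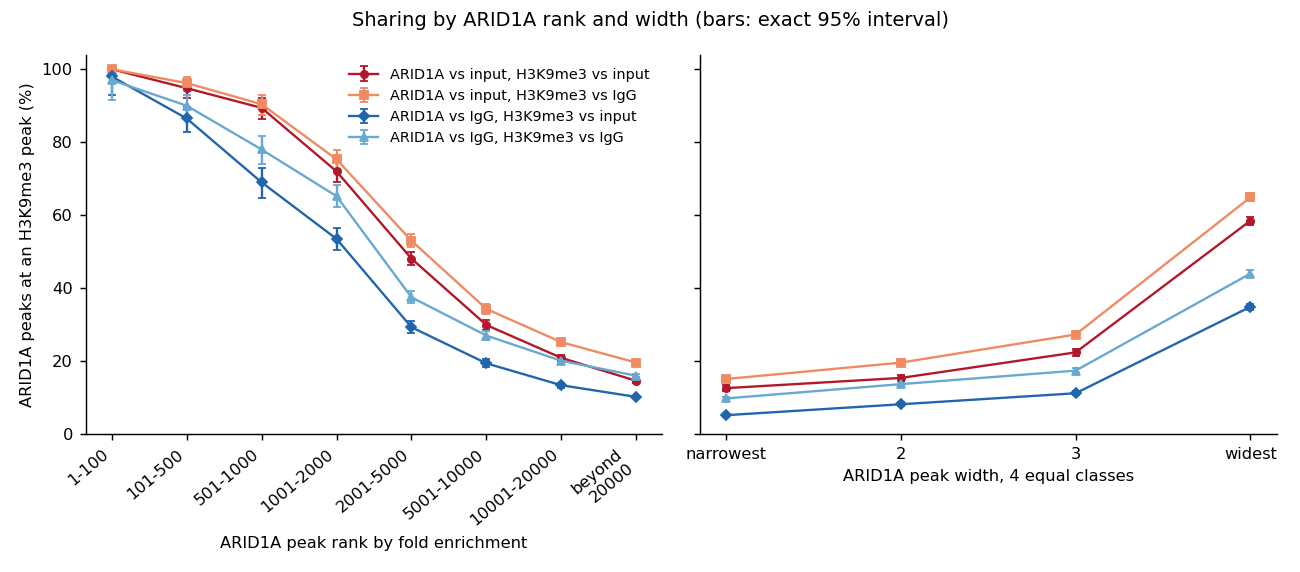
Share of ARID1A peaks that overlap an H3K9me3 peak (%, y axis) by rank of ARID1A fold enrichment (left) and by width in 4 equal classes (right) for the 4 pairings of lists, with exact 95% intervals. With both lists against input all of the first 100 peaks are shared and 14.6% beyond rank 20000, and 58.5% in the widest class and 12.6% in the narrowest.

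More shared sites than genome windows lay inside genes, and fewer were distal. Of the 8063, 67.6% lay over 10 kb from any gene start, 6.78% within 1 kb of one, and 60.5% in the body of a protein-coding gene, with 42.7% in such a body and over 10 kb from a start. ARID1A peaks without H3K9me3 had 68.6%, 6.33% and 54.4% for the first 3 of these, H3K9me3 peaks without ARID1A 74.4%, 4.17% and 49.4%, and windows of 345 bp over the genome 74.7%, 3.91% and 44.8%. The promoter share of shared sites differed from that of the other ARID1A peaks by 0.458 percentage points (-0.167 to 1.11), an interval that holds 0. From the narrowest to the widest of the 4 width classes the difference was -0.699, -0.870, 0.634 and -0.726 points, and each of these intervals holds 0. With both lists against IgG the difference was 2.10 points (1.55 to 2.68). Outside genes lay 25.2% of shared sites, 31.3% of the other ARID1A peaks and 35.7% of the other H3K9me3 peaks. Strong H3K9me3 peaks, 3974 shared and 2859 others, differed less. Of these 68.5% and 67.6% lay over 10 kb from a start, and 6.54% and 6.79% within 1 kb of one. Both intervals of the difference hold 0. In protein-coding genes lay 61.2% of the shared and 54.1% of the other strong H3K9me3 peaks.

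Over all peaks, shared sites were less frequent in gene-poor sequence. In the gene-poorest 1 Mb bins (at most 1 protein-coding gene each) lay 8.55% of shared sites, 12.1% of ARID1A peaks without H3K9me3, 19.5% of H3K9me3 peaks without ARID1A and 24.4% of windows. The difference between shared sites and the other ARID1A peaks was -3.59 percentage points (-4.33 to -2.83), and -6.29 (-6.87 to -5.68) with both lists against IgG. With q of at most 0.05 in both lists it turned to 2.53 (-1.90 to 5.54), an interval that holds 0. Shared sites are wider, and among ARID1A peaks of at least 1 kb the order also turned. There 5.88% (4.76 to 7.17) of 1548 shared peaks and 3.35% (1.36 to 6.78) of 209 others lay in the gene-poorest bins. In protein-coding genes lay 64.2% and 62.2% of these wide peaks. From H3K9me3 peaks without ARID1A, shared sites differed by -10.9 points (-11.6 to -10.2) in the gene-poorest bins. Among strong H3K9me3 peaks alone these bins held 7.93% of the shared and 10.1% of the others, a difference of -2.22 points (-3.63 to -0.843). Over 200 kb from a gene start lay 1.54% of shared sites, 2.96% of the other ARID1A peaks and 7.31% of windows. Peaks of the unmodified H3K9me3 library, only 15 of them strong, lay close to the windows in all of these. They had 76.1% distal, 42.2% in protein-coding genes and 24.3% in the gene-poorest bins, and shARID1A H3K9me3 had 72.4%, 40.6% and 18.4%. Peaks of shCtrl SETDB1 had 62.6%, 46.1% and 11.0%, so shared sites lay in protein-coding genes more often than these too, by 14.4 points (13.3 to 15.5). In protein-coding genes shared sites exceeded unmodified H3K9me3 by 18.2 percentage points (16.8 to 19.6) and shARID1A H3K9me3 by 19.9 (18.7 to 21.0), and in the gene-poorest bins the differences were -15.7 (-16.7 to -14.7) and -9.85 (-10.5 to -9.15). Marks of enhancers and open chromatin were not analysed here.

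**Figure D3:**
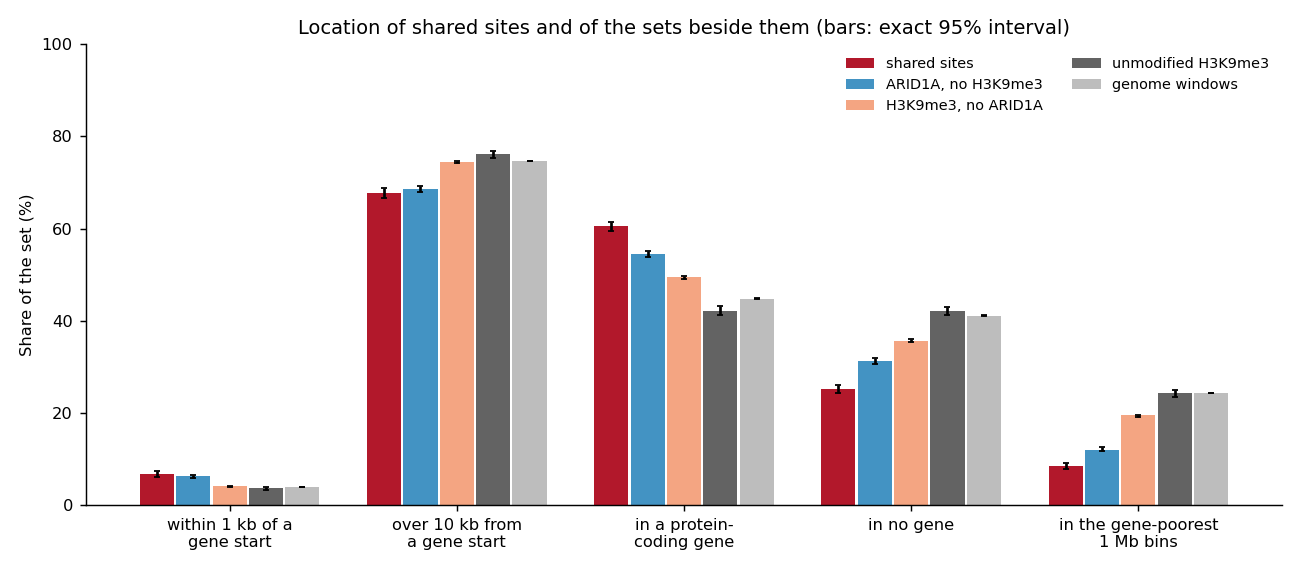
Share of each set (%, y axis) in 5 location classes (x axis) for shared sites, ARID1A peaks without H3K9me3, H3K9me3 peaks without ARID1A, unmodified H3K9me3 peaks and 345 bp windows of the genome, with exact 95% intervals, all lists against input. Of the shared sites 60.5% lie in protein-coding genes and 8.55% in the gene-poorest bins, against 44.8% and 24.4% of the windows.

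ZNF genes of chromosome 19 had few shared sites, and few ARID1A peaks. A shared site lay within 1 kb of the body of 11.2% of the 19974 protein-coding genes, or 3.87 sites per Mb of gene body, and of 16.4% with both lists against IgG. An ARID1A peak lay at 25.8% of these genes and an H3K9me3 peak at 46.8%. Of the 246 ZNF genes on chromosome 19 only ZNF507 had one (0.407%, 0.0103 to 2.24), at chr19:32374044-32374373, with an ARID1A fold of 2.95 and an H3K9me3 fold of 5.28. Only 3 of the 246 had an ARID1A peak against input and 28 an H3K9me3 peak. The other 1205 protein-coding genes of chromosome 19 had one in 2.90% of cases and the 264 ZNF genes elsewhere in 7.58%, among them ZNF704, ZNF827 and ZNF608, or 3.22 per Mb. Against IgG the chromosome 19 ZNF genes had 4 of 246 (1.63%), and the other genes of chromosome 19 had 10.0%. In those lists 155 of the 246 ZNF genes had an H3K9me3 peak, but only 28 (11.4%) had an ARID1A peak. An ARID1A peak against IgG lay at 36.0% of the other genes of chromosome 19 and at 44.2% of all protein-coding genes. Olfactory receptor genes had a shared site in 4 of 392 cases, at 0.701 per Mb of gene body. The germline MAGE, GAGE, PAGE, XAGE and SSX genes, the 73 replication-dependent histone genes and the 85 ribosomal protein genes had 0 with both lists against input, but their bodies make up only 0.683, 0.129 and 0.560 Mb. Long noncoding RNA genes had one in 5.75% of cases and pseudogenes that are not transcribed in 0.677%, with median lengths of 9.08 and 0.650 kb, and per Mb of gene body they had 3.34 and 2.10 shared sites, against 3.87 for protein-coding genes. Of 1911 miRNA genes 21 had one, and MIR29A, MIR29B1, MIR4295, MIR4653, MIR584 and MIR378H lay inside theirs.

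By chromosome the share of ARID1A peaks that were shared was lowest on chromosome 8, at 19.8% (18.5 to 21.1), and highest on X, at 43.3% (25.5 to 62.6), where only 13 of 30 ARID1A peaks stand behind it. Chromosomes 21, 18 and 13 had 38.4%, 37.2% and 36.7%, and chromosome 19 had 24.7%. Shared sites per Mb were the other way about on chromosome 8, with 5.05, against 1.39 on chromosome 19 and 0.154 on X. Chromosome 8 held 12.0% of the ARID1A list against input, 2.31 times its part of the sequence, but 4.92% of the list against IgG (0.950 times), and its shared part with both lists against IgG was 22.1%. The arm beyond 45 Mb had 32.3 ARID1A peaks per Mb, of which 18.0% were shared, and the rest of chromosome 8 had 8.71 per Mb and 36.0%. On chromosome 19 the H3K9me3 list held 0.257 times that part against input and 1.08 times against IgG. These chromosome values thus moved with the control, and leaving out chromosome 8 gave a shared part of 28.3% in all.

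Shared sites came in runs. Joining ARID1A peaks at most 5 kb apart, 18.7% of lone peaks were shared, 33.4% of peaks in runs of 2, 36.7% in runs of 3 or 4, 39.4% in runs of 5 to 9 and 37.8% in runs of 10 or more. The share was thus higher in runs than alone, and about level from runs of 3 peaks on. Another ARID1A peak lay within 5 kb of 64.8% of shared sites and of 42.7% of the other ARID1A peaks. The run with the most shared sites, chr10:112472354-112570115 in VTI1A, a SNARE protein gene beside TCF7L2, held 58 ARID1A peaks, 20 of them shared, over 97762 bp. PCDH7, a protocadherin gene, held 3 of the 10 runs with the most shared sites, with 17, 14 and 14. In DST, which encodes the cytoskeletal linker dystonin, 15 of 24 peaks of a run were shared, in PHLDB2 15 of 46 and in ARHGAP18 14 of 36. On chromosome 8 a run of 42 peaks over CASC19, CCAT1 and CASC21, noncoding RNA genes upstream of MYC, held 14 shared sites, and a run of 44 at PDP1 held 16. In MIR100HG, the host of several miRNAs, 14 of 26 were shared.

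Genes of Hippo, AP-1 and adhesion signalling had shared sites most often among the lists used. These lists were chosen with earlier results of these data known, so that rank is a description and no independent support. Of 41 such genes 23 had at least 1 (56.1%, 39.7 to 71.5), or 36.6 sites per Mb, against 11.2% and 3.87 per Mb for all protein-coding genes. ARID1A peaks as a whole were also more frequent there, at 28 of the 41 genes (68.3%) and 97.3 per Mb, against 25.8% and 13.2 per Mb, and so were H3K9me3 peaks, at 125 per Mb against 36.8. With both lists against IgG 24 of 41 had one (58.5%), against 16.4%. Median gene length was 24.1 kb in the list and 24.2 kb over all protein-coding genes. MET, the hepatocyte growth factor receptor, had 18 shared sites, the highest with an ARID1A fold of 6.24 over input and 4.61 over IgG and an H3K9me3 fold of 11.7 and 10.6. TEAD1, which encodes a DNA-binding partner of YAP, had 13, YAP1 itself 8, and WWTR1, the gene of its paralog TAZ, 6. EGFR and AMOTL1 had 6 each, CD44 had 5, and LAMB3, ITGA2 and EREG had 3 each. MYC had 2. The genes of the AP-1 subunits JUN, JUNB, JUND, FOS, FOSB and FOSL1 had no shared site, nor had CCN1 and CCN2, common readouts of YAP activity, and FOSL2 and ATF3 had 1 and 2. TEAD2, TEAD3, TEAD4, LATS2, AJUBA and ANKRD1 had no shared site either.

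Of 29 intestinal and WNT pathway genes 9 had a shared site (31.0%, 15.3 to 50.8). RNF43 had 11, TCF7L2 9 and ZNRF3 7: TCF7L2 is the WNT effector of the intestine, and RNF43 and ZNRF3 are ubiquitin ligases that remove WNT receptors. AXIN2 had 3, EPHB2 2, and VIL1, CDH17, DKK1 and SOX9 had 1 each, while LGR5, CDX2, HNF4A and APC had none. At RNF43 the site at chr17:58397623-58400385 had an ARID1A fold of 5.26 and an H3K9me3 fold of 4.22. Of 15 colon epithelial markers 4 had a shared site (CDH1, KRT8, VIL1 and CDH17), of 8 blood markers 0, of 6 hepatocyte markers 0, and of 6 neuron markers 2 (MAP2 and RBFOX3). Of 53 clustered protocadherin genes 15 had one, but these include overlapping PCDHA genes that share the site at chr5:141003980-141004407. Among 25 p53 targets 2 had one (XPC and SUSD6), among 28 heterochromatin genes 2 (KDM4C and SMCHD1), among 27 SWI/SNF subunit genes 2 (PBRM1 and ARID1B), and among 39 HOX genes 2. Against IgG in both lists the SWI/SNF genes had 7 of 27 (25.9%, 11.1 to 46.3) and the heterochromatin genes 6 of 28 (21.4%, 8.30 to 41.0). Both intervals hold the 16.4% of all protein-coding genes. With both lists against input the shares were 7.41% (0.910 to 24.3) and 7.14% (0.877 to 23.5), and both intervals hold 11.2%. These counts thus do not set either list apart from all protein-coding genes under either control. By median, the genes of both lists were also longer than protein-coding genes as a whole. Of 34 interferon and RNA-sensing genes 0 had a shared site with both lists against input and 2 with both against IgG.

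**Figure D4:**
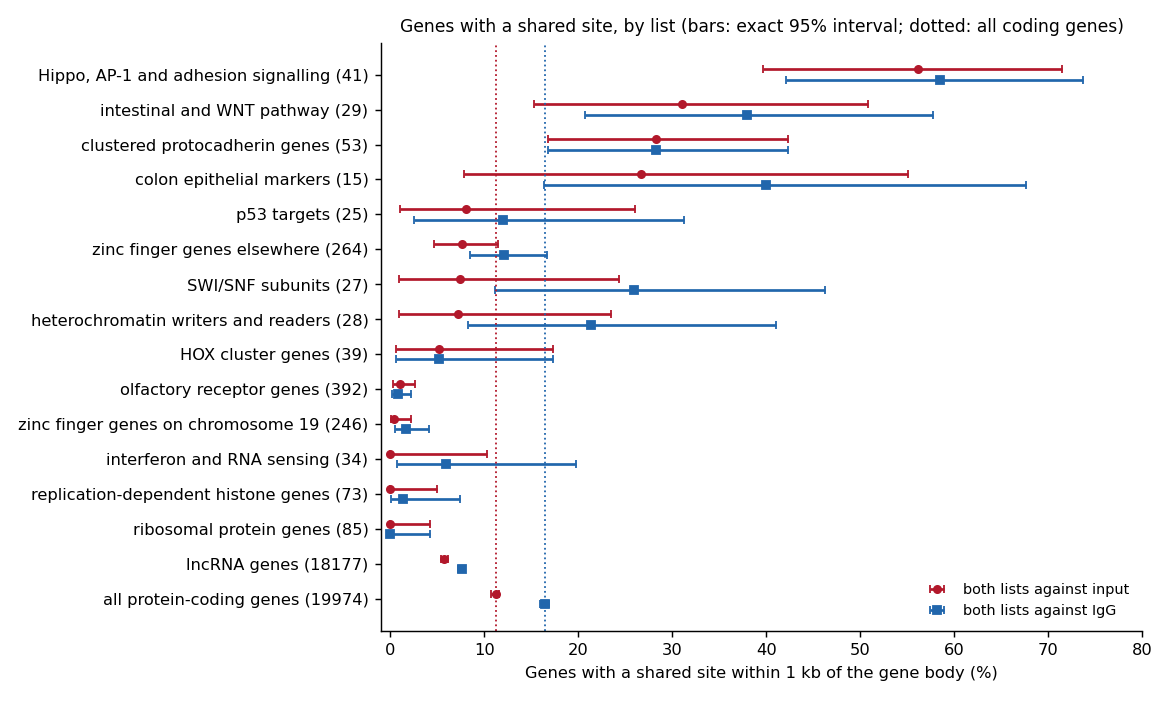
Genes with a shared site within 1 kb of the gene body (%, x axis) in 16 gene lists or classes (y axis, number of genes in brackets), with both lists against input (circles) or IgG (squares), exact 95% intervals, and dotted lines at all protein-coding genes (11.2% and 16.4%). Hippo, AP-1 and adhesion genes stand at 56.1% and 58.5%, and ZNF genes on chromosome 19 at 0.407% and 1.63%. The gene lists were chosen with earlier results of these data known.

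The 24 gene-body sites described next were chosen for the highest ARID1A fold over input among those shared in all 4 lists, so their ARID1A folds are a description. At chr17:63274345-63276502 in TANC2, a scaffold protein of synapses, ARID1A had a fold of 8.43 over input and 6.27 over IgG, and H3K9me3 8.73 and 12.8. The site in OLA1, an ATPase gene, had 7.56 and 6.55 for ARID1A and 11.4 and 8.51 for H3K9me3. The site of the uncharacterised LOC105373910 had 7.56 and 6.39 for ARID1A and 6.57 and 11.0 for H3K9me3. For scale, the median over all sites shared in all 4 lists was 3.02 and 2.77 for ARID1A and 4.19 and 4.73 for H3K9me3. GSDMC, a gasdermin gene, and PCCA, a subunit of propionyl-CoA carboxylase, both had 7.34 over input for ARID1A, with H3K9me3 folds of 5.75 and 14.1. ARHGAP18 had an ARID1A fold of 7.12, the polarity gene PARD3 6.90, the actin and microtubule linker MACF1 6.88, DNMBP 6.88, ARHGAP10 6.34 and DST 6.24. Besides MET, the 12 others, SYTL2, NXN, HBP1, GULP1, MEF2C, SH3D19, LOC105378255, PDE4B, MMP20, JMJD1C, RNF141 and PERP, had ARID1A folds of 6.90 to 6.24 over input. H3K9me3 was strong against input at 23 of the 24, the exception being RNF141 (H3K9me3 fold 2.19 over input and 6.68 over IgG).

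At coding starts the highest were DNMBP (ARID1A fold 6.88 over input and 5.55 over IgG, H3K9me3 7.80 and 7.92) and MEF2C (ARID1A 6.68 and 5.82, H3K9me3 6.61 and 5.22). LIMA1, an actin-binding protein gene, had 5.52 and 5.35 for ARID1A and 6.73 and 11.7 for H3K9me3. HRH1 and SMAD3, whose promoters are printed above, had 4.93 and 4.88 for ARID1A over input and 4.87 and 3.06 for H3K9me3. PRKACB, a catalytic subunit of protein kinase A, TANK, an adaptor of TRAF signalling, and ANKRD28 had ARID1A folds of 5.36, 4.93 and 4.93. H3K9me3 was strong at 6 of these 8 starts, all but PRKACB and SMAD3. Over 10 kb from any gene, the highest site was chr2:223548762-223550191, whose nearest protein-coding gene is SCG2 (ARID1A fold 7.99 over input and 5.58 over IgG, H3K9me3 7.89 and 10.4). The others were nearest to KITLG, the gene of the KIT ligand, and to SOX13, NUDCD1, GNAI1, DRD1 and UTRN, with a second one near SCG2, at ARID1A folds of 6.24 to 5.36. Nearest is a matter of distance, which does not show what gene a site acts on.

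Among the other libraries, shCtrl SETDB1 shared these sites most. A shCtrl SETDB1 peak against input lay at 72.5% of shared sites, at 12.6% of ARID1A peaks without H3K9me3 and at 14.3% of H3K9me3 peaks without ARID1A, and with SETDB1 against IgG at 71.4%, 15.7% and 13.0%. ARID1A summits lay inside a SETDB1 peak at 52.9% of shared sites and 6.90% of the other ARID1A peaks. It lay at all 24 gene-body sites described above, at 8 of 8 starts (2 of which, at DNMBP and MEF2C, are also among the 24) and at 7 of 8 sites far from genes. The second ARID1A library, from shCtrl cells, had a peak at 27.9% of shared sites, 7.88% of the other ARID1A peaks and 10.3% of the other H3K9me3 peaks. Unmodified H3K9me3, from the same cell state as the ARID1A library, had one at 2.32%, 2.31% and 0.603%, and at 0 of the 24 named gene-body sites. Its list held 11374 peaks, of which 15 were strong. The H3K9me3 library of shARID1A cells had one at 12.0%, 2.71% and 2.82% against input but at 53.5%, 14.4% and 12.4% against IgG, where its list held 270687 peaks. TRIM28 peaks against input lay at 8.40% (unmodified), 9.20% (shCtrl) and 4.43% (shARID1A) of shared sites and at 5.31%, 3.70% and 4.86% of the other ARID1A peaks. Against IgG the shARID1A share was the highest of the 3, with 3.17%, 13.1% and 29.6% of shared sites and 2.38%, 8.29% and 13.1% of the other ARID1A peaks. Shared sites are wider and so meet any list more often. By ARID1A summit the TRIM28 shares against input were 2.86%, 3.24% and 1.43% at shared sites and 2.76%, 1.62% and 2.18% at the others. For unmodified TRIM28 that difference was 0.104 points (-0.307 to 0.545), an interval that holds 0. The summit shares were 11.0% and 3.78% for shCtrl ARID1A, and 0.918% and 1.27% for unmodified H3K9me3. A shARID1A SETDB1 peak lay at 2.18% of shared sites and 1.39% of the other ARID1A peaks against input, and at 37.2% and 13.9% against IgG.

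The strong ARID1A peaks of unmodified cells met the shCtrl H3K9me3 and SETDB1 libraries more often than the shCtrl library of their own antibody. Of the 835 peaks 93.2% lay at shCtrl H3K9me3, 91.9% at shCtrl SETDB1, 44.8% at shCtrl ARID1A and 11.5% at shCtrl TRIM28. The shCtrl ARID1A list was long, with 108926 peaks, but only 43 of them were strong and 97.5% had a q of 1. Strong peaks numbered 6833 in the shCtrl H3K9me3 list, 37702 in the shCtrl SETDB1 list and 25 in the shCtrl TRIM28 list. On the same peaks H3K9me3 exceeded shCtrl ARID1A by 48.4 percentage points (paired Wald interval 44.8 to 52.0), and its difference from shCtrl SETDB1 was 1.32 (-0.514 to 3.15), an interval that holds 0. Over all 29576 ARID1A peaks SETDB1 was ahead, with H3K9me3 at 27.3% and SETDB1 at 28.9% (-1.68 points, -2.15 to -1.22). Against IgG the 823 strong peaks gave 87.6%, 84.3% and 55.4%, with differences of 32.2 points (28.5 to 35.9) and 3.28 (1.32 to 5.25). Unmodified H3K9me3 met 6.11% of the strong peaks and unmodified TRIM28 19.2%. The shCtrl H3K9me3 and SETDB1 lists were both called against the shCtrl input, which the ARID1A list of unmodified cells was not. Whether labels, antibodies, cell state or the unequal numbers of strong peaks lie behind this order was not tested.

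**Figure D5:**
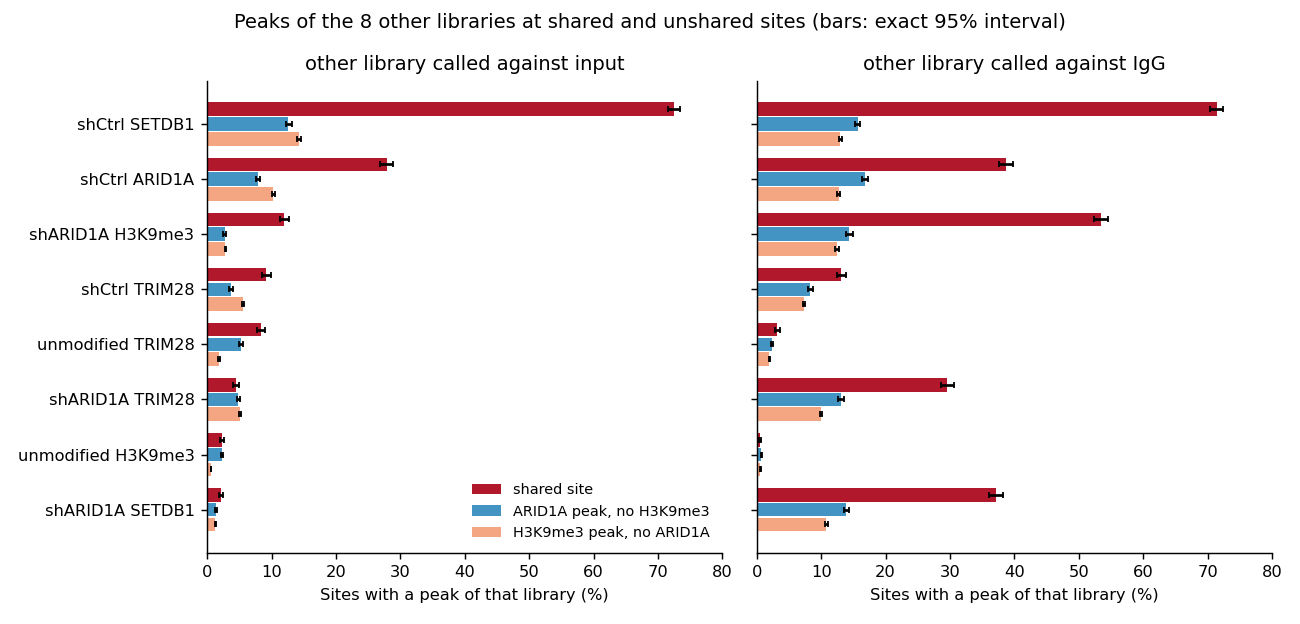
Share of shared sites, of ARID1A peaks without H3K9me3 and of H3K9me3 peaks without ARID1A (%, x axis) that hold a peak of each of the 8 other libraries (y axis), called against input (left) or IgG (right), with exact 95% intervals. A shCtrl SETDB1 peak lies at 72.5% of shared sites, 12.6% of the other ARID1A peaks and 14.3% of the other H3K9me3 peaks (left), and an unmodified H3K9me3 peak at 2.32%, 2.31% and 0.603%.

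The 57 strong ARID1A peaks without an H3K9me3 peak against input are described after their values were seen. Over 200 kb from a gene start lay 10 of the 778 strong shared sites (1.29%), against 8 of these 57 (14.0%, 6.26 to 25.8), a difference of -12.7 points (-24.1 to -5.92). Those 8 peaks were 258 to 513 bp wide. Regions prone to mapping artefacts were not removed from the lists, and their part in this difference was not tested. In protein-coding genes lay 67.4% of the strong shared sites, against 34 of the 57 (59.6%), and the interval of that difference holds 0 (7.70 points, -4.51 to 21.0). VTI1A, WWTR1 and ZNF827 held such peaks and shared sites. An H3K9me3 peak against IgG lay at 21 of the 57 (36.8%) and a shCtrl SETDB1 peak at 25. The peak in BTNL9 on chromosome 5 had an ARID1A fold of 5.36, and one whose nearest gene was ZNF254 on chromosome 19, 416135 bp from a gene start, had 5.01.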

How the data were processed

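Peak lists of HCT116 ChIP-seq libraries were used as deposited by the authors, 1 library per group and 2 lists per library, against input and IgG; the control of a list is read from its name. Per the submitters' processing notes, the tools were MACS2 2.2.7.1, Bowtie2 2.2.5, FastQC 0.11.9, deepTools 3.5.1 and ChIPseeker, and hg38 (GRCh38) was the build; no setting of any tool is stated there. The deposited values are the fold enrichment (a ratio), the −log10 p-value and the −log10 q-value of each peak; their columns follow the narrowPeak layout. Read depth is unknown, and the number of peaks does not show it, since that number changed with the control of the same library.

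Chromosomes 1 to 22 and X were used. Peaks were matched by an overlap of at least 1 bp, and a strong peak has q of at most 0.05. Genes came from RefSeq GRCh38.p14, with starts from its promoter table; 10956 of 38151 protein-coding and long noncoding RNA genes had none there (all of chromosome 8 among them), so both gene ends stood for the start. Background windows are 1 kb bins, or 345 bp at their centres, within 10 kb bins touched by any list. Shares have exact Clopper-Pearson 95% intervals, and differences Newcombe intervals, for counting error only; neighbouring peaks are not independent. No test across replicates was possible. The overlap code was tested on simulated peaks. Python 3.11.15, numpy 2.4.6, pandas 2.3.3 and scipy 1.17.1 were used.

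Named sites are those with the highest ARID1A fold among sites shared in all 4 lists, 24 in gene bodies and 8 at coding starts (1 per gene in each class; DNMBP and MEF2C are in both) and 8 over 10 kb from any gene (2 of them nearest to SCG2), plus up to 3 members per gene list. The sites and gene lists were chosen with earlier results of these data known. Alternatives changed the control, the q threshold, the overlap rule, merging and windows.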

Additional observations from a re-analysis of the deposited data

How the results depend on the processing

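The 6 main results were the shared part of ARID1A peaks (27.3%), the shared part of H3K9me3 peaks (9.24%), the width difference between shared and other ARID1A peaks (192 bp), the promoter difference (0.458 percentage points), the gene-poor difference (-3.59 points) and the part of chromosome 19 ZNF genes with a shared site (0.407%). They are given in that order below. With both lists against IgG the first 4 were 21.3%, 5.12%, 128 bp and 2.10 points. With ARID1A against input and H3K9me3 against IgG they were 31.8%, 4.44%, 175 bp and 2.34 points. With ARID1A against IgG and H3K9me3 against input the first 3 were 14.9%, 8.84% and 176 bp. With q of at most 0.05 in both lists all 6 were 79.5%, 10.8%, 642 bp, -2.41 points (-8.10 to 1.87), 2.53 points (-1.90 to 5.54) and 0%. With at least 50% of the ARID1A peak covered the first 4 were 14.7%, 4.68%, 113 bp and -0.0863 points (-0.841 to 0.734), and the sixth 0%. With the ARID1A summit inside the H3K9me3 peak they were 17.4%, 5.51%, 184 bp and -0.213 points (-0.918 to 0.546), and the sixth 0%. With peaks merged within 1000 bp the first 4 were 28.4%, 8.89%, 402 bp and 1.72 points. Without chromosome 8, an alternative chosen after seeing the data, the first was 28.3% and the third 194 bp. The sign of the promoter difference thus depends on the overlap rule and the threshold, and the gene-poor difference kept its sign under all alternatives but the q threshold, where 835 ARID1A peaks remain. A limit on width was not among these alternatives, and among ARID1A peaks of at least 1 kb the gene-poor shares were 5.88% (shared) and 3.35% (other). The cause of these changes was not tested. No paired analysis was possible because each group has 1 library. Depth is unknown and each group has 1 library, so no value here carries an error between replicates.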
